A study of Lactuca sativa with 12 samples.

Results

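The enzymes of chlorophyll synthesis are described here through the genes whose RefSeq name held 1 of 8 enzyme words of the pathway, a rule that 6 of the 2264 genes in the deposited tables met. The other 4 words matched no listed gene (protochlorophyllide, uroporphyrinogen, coproporphyrinogen and chlorophyll synthase). The 6 genes were 2 for glutamyl-tRNA reductase, 1 for the ChlH subunit of magnesium chelatase, 1 for the cyclase and 2 for geranylgeranyl diphosphate reductase, and the files place all 6 in KEGG porphyrin metabolism. A gene appears in the tables only where the authors called it in at least 1 of 6 pairwise comparisons, so each of the 6 had to differ somewhere. Genes of the pathway without such a call were not analysed here.

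Plants make chlorophyll in the plastid from glutamate. Glutamyl-tRNA reductase (GluTR) makes the precursor of 5-aminolevulinic acid and is the main control point of the pathway, which also supplies haem. Magnesium chelatase then directs protoporphyrin IX to the chlorophyll branch, a di-iron cyclase closes the fifth ring of the pigment, and geranylgeranyl diphosphate reductase (CHLP) makes the phytyl tail, which is also used for vitamin E. In land plants the genes of these steps are usually expressed together with those of the light-harvesting proteins that bind the pigment.

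RNA came from whole leaves of red oak-leaf lettuce (Lactuca sativa) grown in hydroponics and was sequenced after poly(A) selection. CdSeNP plants received cadmium at 10 mg/L with selenium nanoparticles at 3 mg/L, SeNP plants received the nanoparticles alone at 3 mg/L, Cd plants received cadmium alone at 10 mg/L, and CK plants received neither. Plants were 4 weeks old when treatment began and 1.5 months old, with 6 leaves, at sampling. Each group had 3 libraries, which the series text calls biological replicates, and all 12 carry the same batch label. The labels give the cadmium dose both as the metal and as a hydrated chloride, so the amount of cadmium ion is uncertain. In such bulk RNA of whole leaves fewer cells of a type and less RNA per cell cannot be told apart.

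Library totals recovered from the files lay between 23.31 and 31.36 M reads. The leaf label was checked on 24 marker genes of mesophyll with values in all 12 libraries (light-harvesting proteins, photosystem subunits and small subunits of Rubisco), of which LOC128127153 was the lowest, at 0.726 ± 0.066 FPKM in CdSeNP. Their summed level was 11659 to 12154 FPKM in CdSeNP, 28215 to 29022 in SeNP, 11933 to 12813 in Cd and 26242 to 27819 in CK. The 24 genes are in the tables because the authors called them. Their levels show leaf tissue in each group, but the differences between groups follow from that selection. CK 2 stood apart on the 13 markers of dividing cells, with 99.4 FPKM in sum against 39.9 in CK 1 and 34.8 in CK 3. These markers summed to 128 to 156 FPKM in CdSeNP, 170 to 180 in SeNP and 184 to 247 in Cd.

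GluTR1 and the CHLP gene on chromosome 5, the members with values in all 12 libraries, were lower with cadmium. GluTR1 was 2.45-fold lower in Cd than in CK and 2.55-fold lower in CdSeNP than in SeNP, and the CHLP gene was 2.54-fold and 2.55-fold lower in the same comparisons (authors' deposited table). The cyclase and ChlH were lower in CdSeNP than in SeNP by 2.12-fold and 2.18-fold. GluTR2, a weaker gene for the same enzyme as GluTR1, was lower in Cd than in CK and higher in CdSeNP than in Cd. The CHLP gene on chromosome 4 was lower in SeNP than in CK. Per comparison, the authors listed 3 of the 6 genes as lower in Cd than in CK (background 1.39% of genes tested). They listed 3 as lower in CdSeNP than in CK (1.33%) and 4 as lower in CdSeNP than in SeNP (0.625%). The tables hold 1 as lower in SeNP than in CK (2.07%), 2 as higher in SeNP than in Cd (0.67%) and 1 as higher in CdSeNP than in Cd (1.09%). The background is over all genes tested, while each of the 6 had to be called in at least 1 comparison. These counts are therefore not call rates to set against it.

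GluTR1 (LOC111877439, glutamyl-tRNA reductase 1, chloroplastic) lies on chromosome 6, 189618182 to 189620450, minus strand. It had 187, 191 and 192 FPKM in CdSeNP 1 to 3, and 467, 465 and 475 FPKM in SeNP 1 to 3. It had 197, 189 and 198 FPKM in Cd 1 to 3, and 412, 444 and 460 FPKM in CK 1 to 3. The 6 libraries with cadmium all lay below the 6 without it, and within each set the differences were small. The means were 190.1 ± 2.81 FPKM in CdSeNP, 469 ± 5.56 in SeNP, 195 ± 4.64 in Cd and 439 ± 24.7 in CK (SD, n = 3). In the authors' deposited table (DESeq2) the log2 fold change of Cd over CK was -1.29 (SE 0.076 recovered from their p) with an adjusted p of 1.1e-61, where 1.39% of the 23049 genes tested were called lower. Refits of the listed genes kept -1.29 with weaker p-values. The adjusted p was 7e-08 in DESeq2 (SE 0.222) and 5.3e-06 in edgeR (SE 0.083). The authors' deposited table of CdSeNP over SeNP gives -1.35 (SE 0.04, adjusted p 3.1e-243, DESeq2), with 0.625% of 22862 genes called lower, and that of CdSeNP over CK gives -1.30 (SE 0.077, adjusted p 1.8e-60, DESeq2), with 1.33% of 22856 genes called lower. SeNP over Cd stood at 1.37 (SE 0.044, adjusted p 2e-206, DESeq2) in the authors' deposited table, with 0.67% of 22978 genes called higher. These comparisons share libraries and are not separate evidence, and membership rests on such calls, so nothing is read from their number.

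GluTR2 (LOC111892988, glutamyl-tRNA reductase 2) lies on chromosome 9, 208404173 to 208406968, minus strand, and had values in 3 groups. It had 11.1, 11.0 and 10.1 FPKM in CdSeNP 1 to 3, and 4.90, 4.70 and 4.61 FPKM in Cd 1 to 3. In CK 1 to 3 it had 11.3, 6.80 and 13.6 FPKM. The Cd libraries were the lowest and agreed closely, the CdSeNP libraries fell inside the range of the controls, and CK 2 was far below the other controls. The means were 10.7 ± 0.577 FPKM in CdSeNP, 4.74 ± 0.144 in Cd and 10.6 ± 3.44 in CK (SD, n = 3). The gene is in no table with SeNP, so its level there was not analysed. The authors' deposited table of CdSeNP over Cd puts the log2 fold change at 1.22 (SE 0.1, adjusted p 4.6e-32, DESeq2), where 1.09% of 23096 genes were called higher. Their deposited table of Cd over CK gives -1.28 (SE 0.233, adjusted p 1.4e-06, DESeq2). An edgeR refit of the listed genes gave the same -1.28 for Cd over CK. With p adjusted for the number of genes the authors tested, the adjusted p of this refit was 0.11. Only listed genes could be ranked for it, so 0.11 is an upper limit. Without CK 2 the refit gave -1.53 and without CK 3 it gave -1.05.

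CdSeNP and CK were not called different for GluTR2, and the interval was wide. In an edgeR quasi-likelihood fit of the 900 genes with counts in both groups, of which 72.1% passed, the log2 difference of CdSeNP over CK was -0.07 (95% interval -0.7 to 0.56, adjusted p 0.84). Leaving out CK 2 moved it to -0.32 with an adjusted p of 0.028 in edgeR, and leaving out CK 3 moved it to 0.16. The counts behind these values ran from 260 to 704 reads for each library, against 8790 to 25797 for GluTR1.

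The GluTR pair was compared per gene length. GluTR2 had 5.65 ± 0.372% of the FPKM of GluTR1 in CdSeNP, 2.43 ± 0.088% in Cd and 2.41 ± 0.766% in CK (SD, n = 3). Its share in CdSeNP ran from 5.24 to 5.95% and exceeded every Cd and CK library, which ran from 1.53 to 2.95%. The exact permutation test (two-sided) gave p = 0.1 for CdSeNP against Cd, the smallest that 3 libraries against 3 allow, and 0.14 after adjustment over 14 such tests of 5 ratios. For GluTR1 itself no difference between CdSeNP and Cd was detectable, with a log2 difference of 0.01 (95% interval -0.1 to 0.12, adjusted p 0.89, edgeR), in a fit where 67% of 902 genes passed. GluTR2 has values in CdSeNP only through its call against Cd. The ratio of CdSeNP against Cd thus restates that call and is not separate support for it. Reads shared between the 2 copies could blur such a ratio, and the counting program is not given in the sources used here.

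**Figure D1:**
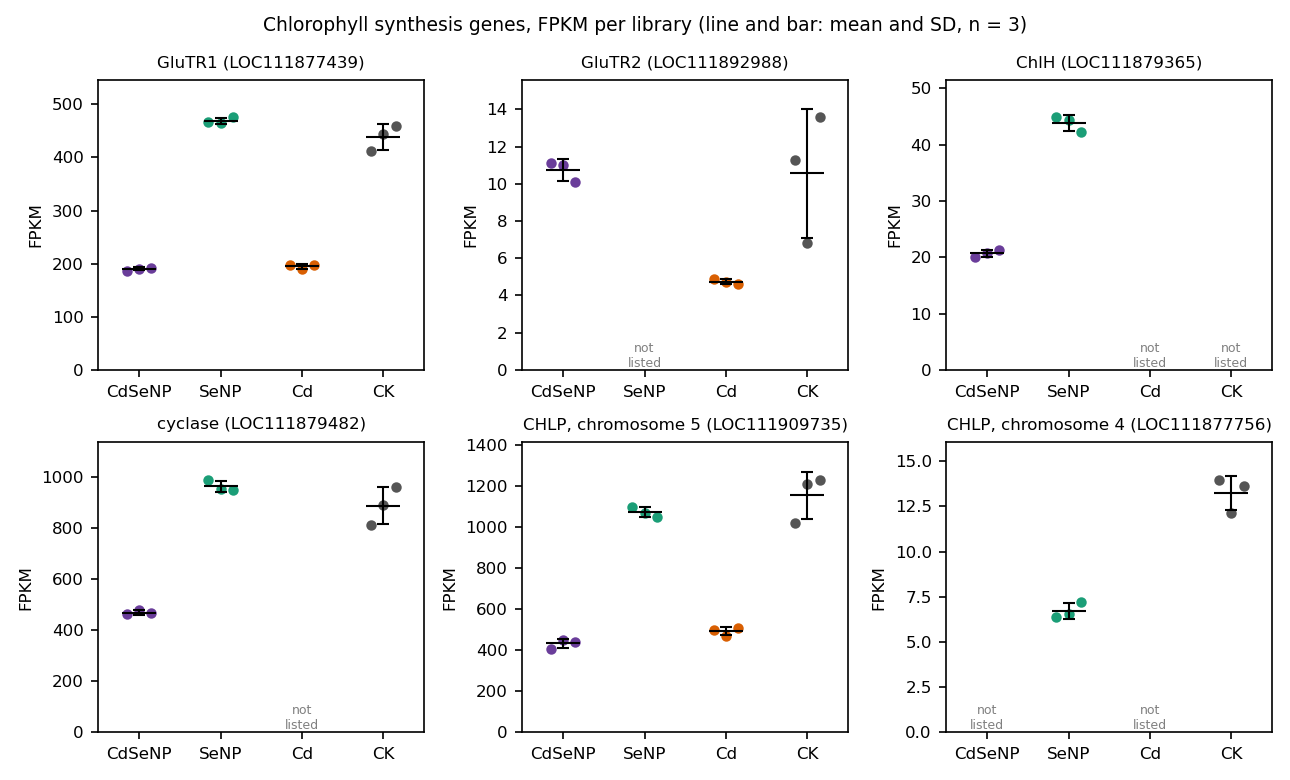
FPKM of the 6 chlorophyll synthesis genes (y axis, linear from 0, a scale for each gene) in the libraries of CdSeNP, SeNP, Cd and CK (x axis). Points are libraries, the line and bar are the mean and SD of 3; "not listed" marks groups without a value and is not a level of 0. GluTR1 and the CHLP gene on chromosome 5 form a low set with cadmium and a high set without it, GluTR2 is lowest in Cd, and the CHLP gene on chromosome 4 is lower in SeNP than in CK.

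The ChlH gene (LOC111879365, chromosome 9, 33053348 to 33058180, plus strand) encodes the large porphyrin-binding subunit of magnesium chelatase. It had 20.01, 20.8 and 21.3 FPKM in CdSeNP 1 to 3, and 44.8, 44.4 and 42.2 FPKM in SeNP 1 to 3. The groups were far apart, with means of 20.7 ± 0.639 FPKM in CdSeNP and 43.8 ± 1.43 in SeNP (SD, n = 3). The authors' deposited table puts the log2 fold change at -1.13 (SE 0.05), with an adjusted p of 2.1e-110 (DESeq2). ChlH was listed in no other comparison, so the authors called it neither in Cd against CK nor in CdSeNP against CK. Its levels in Cd and CK have no values, and whether it differed with cadmium alone was not tested here. The other subunits of the chelatase were not analysed here.

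The cyclase (LOC111879482, magnesium-protoporphyrin IX monomethyl ester [oxidative] cyclase, chloroplastic) lies on the same chromosome at 35006444 to 35008267, minus strand, 1.95 Mb from ChlH with 72 RefSeq genes between them. It had 462, 479 and 466 FPKM in CdSeNP 1 to 3, 988, 952 and 948 FPKM in SeNP 1 to 3, and 813, 891 and 959 FPKM in CK 1 to 3. CdSeNP lay below both other groups with no overlap, while SeNP and CK overlapped. The cyclase was not listed in any comparison with Cd, so it was not called for cadmium alone and its level in Cd was not analysed. The means were 469 ± 9 FPKM in CdSeNP, 963 ± 22.3 in SeNP and 887 ± 73.2 in CK (SD, n = 3). For CdSeNP over SeNP the authors' deposited table puts the log2 fold change at -1.08 (SE 0.042, adjusted p 1.6e-144, DESeq2). For CdSeNP over CK it gives -1.01 (SE 0.089, adjusted p 4.3e-27, DESeq2), just inside the fold limit of 1 that the tables use. That call fell outside the limit with library totals as scaling (-0.92), without CK 3 (-0.94) and without CdSeNP 1 (-1.0 after rounding), with the direction kept. The level of ChlH was 4.42 ± 0.13% of that of the cyclase in CdSeNP and 4.55 ± 0.107% in SeNP (FPKM, SD, n = 3), a difference within the spread of the libraries (exact permutation test, p = 0.3, adjusted 0.38).

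The CHLP gene on chromosome 5 (LOC111909735, 45763358 to 45764860, minus strand) had the highest mean FPKM of the 5 members with values in SeNP and of the 5 with values in CK. It had 408, 452 and 442 FPKM in CdSeNP 1 to 3, and 1102, 1072 and 1052 FPKM in SeNP 1 to 3. It had 501, 472 and 508 FPKM in Cd 1 to 3, and 1022, 1213 and 1231 FPKM in CK 1 to 3. As for GluTR1, the 6 libraries with cadmium lay below the 6 without it. The means were 434 ± 22.9 FPKM in CdSeNP, 1075 ± 25.2 in SeNP, 494 ± 19.3 in Cd and 1156 ± 116 in CK (SD, n = 3). In the authors' deposited table (DESeq2) the log2 fold change was -1.35 for Cd over CK (SE 0.095, adjusted p 1.6e-42), and the table of CdSeNP over SeNP gives -1.35 as well (SE 0.047, adjusted p 1e-182, DESeq2). Refits of the listed genes kept -1.35 for Cd over CK with weaker p-values. The adjusted p was 7.2e-08 in DESeq2 (SE 0.232) and 4.7e-06 in edgeR (SE 0.082). For CdSeNP over CK the authors' deposited table gives -1.50 (SE 0.097, adjusted p 1.2e-50, DESeq2), and for SeNP over Cd 1.22 (SE 0.048, adjusted p 1.6e-142, DESeq2).

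The difference of this gene between CdSeNP and Cd was small and its call was not stable. All 3 CdSeNP libraries lay below all 3 Cd libraries, and the edgeR fit of 902 genes, of which 67% passed, gave a log2 difference of -0.14 (95% interval -0.26 to -0.02, adjusted p 0.038). The difference was far under the fold limit of the tables and lost its call without CdSeNP 1 (edgeR, adjusted p 0.11), CdSeNP 3 (0.055), Cd 1 (0.11) or Cd 3 (0.14).

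The other CHLP gene (LOC111877756, chromosome 4, 200687078 to 200688664, minus strand) was a minor copy with values in SeNP and CK only. It had 6.39, 6.58 and 7.19 FPKM in SeNP 1 to 3, and 14.0, 12.2 and 13.6 FPKM in CK 1 to 3. All SeNP libraries lay below all controls, with means of 6.72 ± 0.421 FPKM in SeNP and 13.2 ± 0.962 in CK (SD, n = 3). The authors' deposited table of SeNP over CK puts the log2 fold change at -1.01 (SE 0.13, adjusted p 1.6e-12, DESeq2), where 2.07% of 22656 genes were called lower. It was the only member listed in that table. Like the cyclase it stood just inside the fold limit, and it fell outside with library totals (-0.98), without SeNP 1 (-0.98), without CK 1 (-0.97) and without CK 3 (-0.98). With p adjusted for the number of genes tested, the edgeR refit kept -1.01 but gave an adjusted p of 0.11, an upper limit because only listed genes were ranked. Relative to the chromosome 5 gene its FPKM was 0.626 ± 0.053% in SeNP and 1.16 ± 0.188% in CK (SD, n = 3), with no overlap (exact permutation test, p = 0.1, the smallest possible, adjusted 0.14). The minor gene is listed in this comparison alone, so the ratio restates its call and is not separate support for it. Counts of 260 to 603 reads lie behind the minor gene, against 15277 to 49433 for the chromosome 5 gene, and the sharing of reads between the copies was not tested.

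Of the other genes with values in SeNP and CK, none passed the test with all libraries. In an edgeR fit of the 1109 genes with counts in SeNP and CK, of which 72.8% passed, the log2 difference of SeNP over CK was 0.07 for GluTR1 (95% interval -0.1 to 0.23, adjusted p 0.45), although its SeNP libraries, at 465 to 475 FPKM, all lay above its CK libraries, at 412 to 460 FPKM. It was 0.09 for the cyclase (95% interval -0.09 to 0.26, adjusted p 0.35, edgeR) and -0.13 for the chromosome 5 CHLP gene (95% interval -0.31 to 0.04, adjusted p 0.15, edgeR). Without CK 1 the CHLP value was -0.21 with an adjusted p of 0.018 (edgeR).

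**Figure D2:**
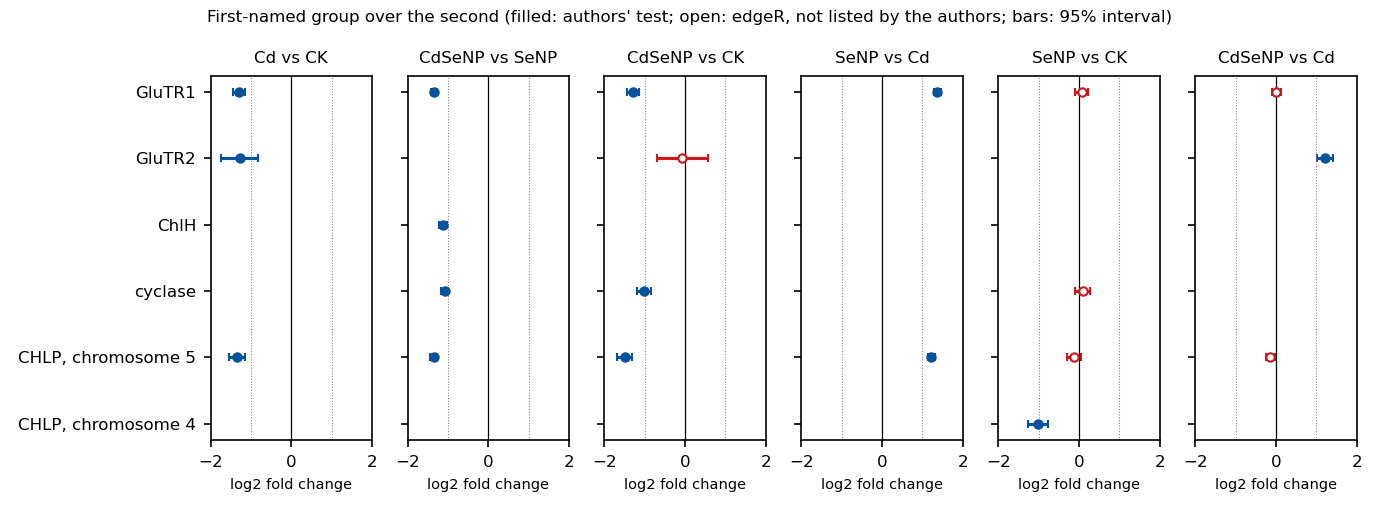
Log2 fold change of the first-named over the second group (x axis) for each chlorophyll synthesis gene (rows) in the 6 comparisons (panels), with 95% intervals. Filled points are the authors' values, open points are edgeR estimates for genes that the authors did not list, dotted lines mark the fold limit of 1, and rows without a point have no values in 1 or both groups. The filled points of Cd over CK, CdSeNP over CK and CdSeNP over SeNP lie between -1.50 and -1.01, those of SeNP over Cd and CdSeNP over Cd lie above 1, and the open points lie near 0.

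Whether cadmium acted differently with the nanoparticles present was tested on the genes with values in all 12 libraries. The Cd effect with nanoparticles minus that without was -0.06 on the log2 scale for GluTR1 (SE 0.077, 95% interval -0.23 to 0.11, adjusted p 0.52) and -0.01 for the chromosome 5 CHLP gene (SE 0.095, 95% interval -0.21 to 0.2, adjusted p 0.96), by edgeR over 575 genes. Neither member passed, 0 of 2, where 73.7% of the 575 genes did, and neither reached an unadjusted p of 0.05 in edgeR or in the other settings tried, DESeq2 included (adjusted p 0.68 and 0.97). The 575 genes were themselves listed because they differed between groups, so that share describes a selected set.

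Ratios between members were compared within libraries. GluTR1 had 43.8 ± 1.81% of the FPKM of the chromosome 5 CHLP gene in CdSeNP and 43.7 ± 1.42% in SeNP, against 39.5 ± 0.625% in Cd and 38.1 ± 1.94% in CK (SD, n = 3). The 6 libraries with nanoparticles ran from 42.2 to 45.8% and those without from 36.6 to 40.3%. Each comparison of a group with nanoparticles and a group without gave p = 0.1 by the exact permutation test, the smallest possible, and 0.14 after adjustment. No difference in this ratio was therefore called. In SeNP against CK neither gene passed on its own with all libraries (edgeR, adjusted p 0.45 for GluTR1 and 0.15 for CHLP). How often other pairs of genes split in this way was not computed. The cyclase stood at 108 ± 4.25% of CHLP in CdSeNP, 89.5 ± 0.681% in SeNP and 76.9 ± 3.17% in CK, with no overlap among the groups (exact permutation test, p = 0.1 for each pair, adjusted 0.14). The cyclase has values in these groups only through its calls in CdSeNP against CK and CdSeNP against SeNP. Its ratio is thus not separate support for those calls.

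**Figure D3:**
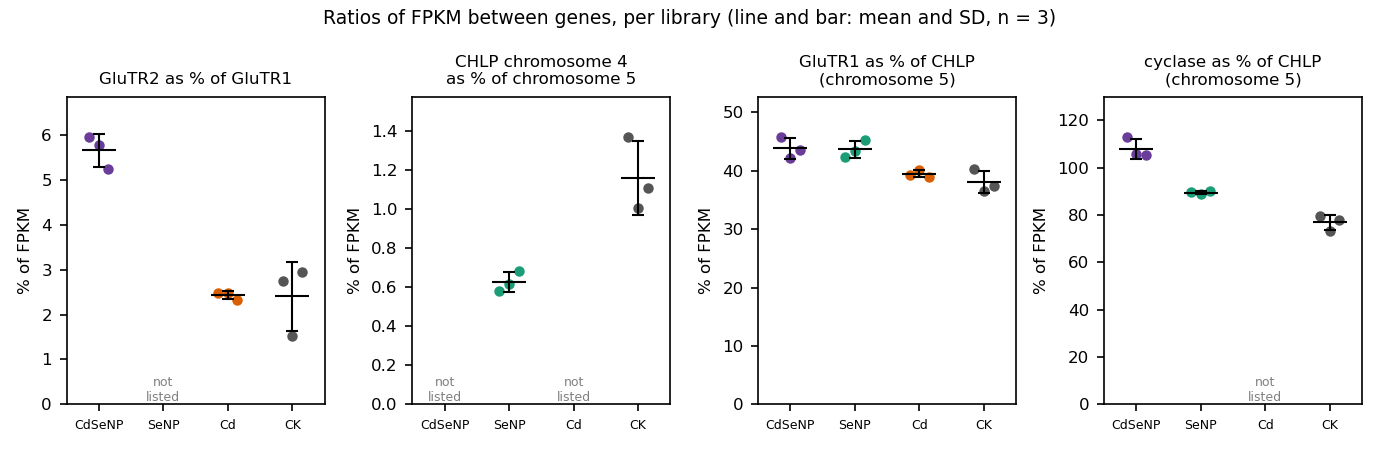
Ratios of FPKM between chlorophyll synthesis genes in percent (y axis, linear from 0) for the libraries of CdSeNP, SeNP, Cd and CK (x axis), with mean and SD of 3; "not listed" marks groups without values. GluTR2 stands at 5.65% of GluTR1 in CdSeNP and 2.43 and 2.41% in Cd and CK, and the minor CHLP gene has a smaller share in SeNP than in CK. The other panels show GluTR1 and the cyclase relative to the main CHLP gene. No ratio was called different between groups after adjustment.

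The genes with the patterns most like GluTR1 and the chromosome 5 CHLP gene were for light-harvesting and photosystem proteins. Over the 12 libraries, the genes with the pattern most like GluTR1 were chlorophyll a-b binding protein CP29.2 (LOC111891628, Pearson r = 0.9985 on log2(FPKM + 1)), an LHCII type 1 protein (LOC111895045, r = 0.9973) and chlorophyll a-b binding protein 6A (LOC111877237, r = 0.9963), out of 573 genes. For CHLP they were photosystem I subunit II (LOC111898767, r = 0.9925), chlorophyll a-b binding protein 13 (LOC111904852, r = 0.9899) and CP24 10A (LOC111899517, r = 0.9895). The libraries fall into a set with and a set without cadmium, so no r within a set is given and no p, and 47 genes exceeded 0.95 with GluTR1 and 40 with CHLP. CP29.2 had 922 ± 16.7 FPKM in CdSeNP, 1922 ± 46.2 in SeNP, 922 ± 21.5 in Cd and 1769 ± 92.6 in CK (SD, n = 3).

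Set against the summed FPKM of the 24 mesophyll markers, the shares of GluTR1 overlapped between CdSeNP and SeNP and between Cd and CK. The FPKM of GluTR1 was 1.60 ± 0.056% of their sum in CdSeNP, 1.65 ± 0.035% in SeNP, 1.56 ± 0.027% in Cd and 1.61 ± 0.1% in CK (SD, n = 3). The chromosome 5 CHLP gene had 3.65 ± 0.25% in CdSeNP, 3.77 ± 0.046% in SeNP, 3.94 ± 0.032% in Cd and 4.25 ± 0.48% in CK, and its CK libraries, at 3.71 to 4.62%, overlapped every other group. The cyclase had 3.94 ± 0.12% in CdSeNP, 3.38 ± 0.028% in SeNP and 3.26 ± 0.27% in CK, and the CdSeNP libraries, at 3.80 to 4.01%, lay above all those of SeNP and CK. The share of ChlH was 0.174 ± 0.0089% in CdSeNP and 0.154 ± 0.0042% in SeNP, also without overlap. So the cyclase and ChlH were lower in FPKM in CdSeNP than in SeNP, but by less than the summed markers. These 24 markers have values only because the authors called them in these data. Their sum is therefore no independent measure of mesophyll, and nothing on cell types is read from the shares. The share of GluTR2 was 0.0901 ± 0.0032% in CdSeNP, 0.0379 ± 0.0017% in Cd and 0.0386 ± 0.012% in CK. The share of the minor CHLP gene was 0.0236 ± 0.0017% in SeNP and 0.0487 ± 0.0022% in CK. Of the 29 mesophyll genes in the tables, 25 were called in Cd against CK, 24 in CdSeNP against CK and 24 in CdSeNP against SeNP, all lower, and none in SeNP against CK or CdSeNP against Cd. Of the 74 markers of dividing cells in the tables, 71 were higher in Cd than in CK, 53 in SeNP than in CK and 14 in CdSeNP than in CK. Over all genes tested, 799 of 23049 were higher and 320 lower in Cd than in CK, 282 of 22656 were higher in SeNP than in CK, 285 of 22856 were higher and 303 lower in CdSeNP than in CK, and 143 of 22862 were lower in CdSeNP than in SeNP. Markers enter these lists only if called somewhere, so their counts are not call rates of a marker set. Of 13 epidermis genes in the tables, 7 were higher and 4 lower in Cd than in CK, so the list did not move 1 way. Its member ECERIFERUM 26 (LOC111905151) had 23.5 ± 0.985 FPKM in Cd and 84.3 ± 16.1 in CK, while non-specific lipid-transfer protein 1 (LOC111887989) had 128 ± 43.2 in Cd and 11 ± 9.25 in CK (SD, n = 3). Of 10 laccases, the genes found for vasculature and lignifying cells, 7 were called in CdSeNP against SeNP, 6 of them lower, and 4 in SeNP against CK, 3 of them higher. Laccase-4 (LOC111906766) had 0.838 ± 0.107 FPKM in CdSeNP, 2.23 ± 0.131 in SeNP, 1.03 ± 0.296 in Cd and 0.986 ± 0.211 in CK (SD, n = 3). The part of these cell types in the differences of the chlorophyll genes was not tested.

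Few other genes of the pathway were listed. No gene matched the list for other steps of tetrapyrrole and haem synthesis, such as glutamate-1-semialdehyde aminomutase, ferrochelatase and haem oxygenase, and none matched the list for chlorophyll breakdown, such as pheophytinase and stay-green proteins. Of the list for isoprenoid supply, 1 gene was called in CdSeNP against SeNP and it was lower. This was phytoene synthase 2 (LOC111916034), the entry enzyme of carotenoid synthesis, with 17.3 ± 0.342 FPKM in CdSeNP and 35.5 ± 0.764 in SeNP (SD, n = 3). Geranylgeranyl pyrophosphate synthase 7 (LOC111906168), which makes the substrate of CHLP, had 0.517 ± 0.173 FPKM in SeNP and 1.39 ± 0.225 in Cd (SD, n = 3).

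In the list of light and plastid regulators 2 genes for transcription factor bHLH47, known in Arabidopsis as POPEYE, a regulator of iron-deficiency responses, were listed. LOC111906812 had 21.8 ± 0.321 FPKM in CdSeNP, 2.05 ± 0.171 in SeNP, 22.3 ± 0.992 in Cd and 1.63 ± 0.141 in CK (SD, n = 3). It was higher with cadmium in each such comparison, with a log2 fold change of 3.65 for Cd over CK (adjusted p 7.7e-112) in the authors' deposited table (DESeq2). LOC111911448 was lower in Cd than in CK, with 17.4 ± 0.244 FPKM in Cd and 38.3 ± 3.12 in CK, and -1.25 (adjusted p 4.3e-29, DESeq2) in the authors' deposited table. It was not listed in CdSeNP against CK or in CdSeNP against SeNP. No listed gene was named for GLK, HY5 or a phytochrome-interacting factor. Of 8 listed genes of the iron state (ferritins, NEET, ORG2 and bHLH100), 4 were higher and 4 lower in Cd than in CK. Those higher were the ORG2 genes and bHLH100, and those lower were the ferritins and NEET. The same split was found in CdSeNP against SeNP. Over all genes tested, 799 of 23049 were higher and 320 lower in Cd than in CK. In CdSeNP against SeNP 741 of 22862 were higher and 143 lower. The 8 genes are listed because the authors called them, so these counts are not call rates. Among the ferritin genes, for plastid iron storage, the log2 fold change of Cd over CK ran from -1.01 (LOC111879873) to -3.17 (LOC111919692) in the authors' deposited table. The part of iron in the levels of the chlorophyll genes was not tested.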

How the data were processed

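The deposited data are 6 tables, 1 for each pair of groups. The authors deposited raw read counts of every listed gene and, beside them, FPKM, which divides by transcript length and sequencing depth. The log2 fold change, p-value and adjusted p-value of each gene are the authors' own, per the file headers. Tools named in the submitters' processing notes are DESeq2 1.34.0, StringTie 2.2.1, HISAT2 2.2.1, Trimmomatic and fastp 0.23.0, with no role given. Neither build nor counting program is given in the sources used here. All 2102 RefSeq IDs had the same start and end in the annotation Lsat_Salinas_v11, which gave chromosome names.

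Listed genes had an adjusted p below 0.05 and a log2 change beyond 1 in size, so the authors' test is the main one. Genes tested were counted from adjusted over raw p, and library totals came from the relation of counts to FPKM. Their SE is the log2 fold change over the normal quantile of p. Size factors fitted pair by pair to the authors' fold changes (median residual 0.0004 log2) entered edgeR 4.0.16 quasi-likelihood fits and DESeq2 1.42.0 refits. The interaction fits used size factors fitted to all 12 libraries together (median residual 0.0016 log2). Benjamini-Hochberg adjustment was over the genes fitted. Those genes are a selected set, so the refits are less certain than a fit of all genes. Only the edgeR fit of Cd against CK was tried on simulated counts. The DESeq2 refits and the interaction fits were not. Named genes are all 6 members plus, for likeness, the 3 genes of highest Pearson r. The members, lists and tests were chosen with earlier results of these data known. Replicate numbers were taken to pair libraries where the deviations of all 3 same-numbered pairs correlated above 0.1, which held for Cd against CK (0.181 to 0.608) and SeNP against CK (0.14 to 0.433). In each other comparison at least 1 pair fell below, and the replicate block changed no call of a listed gene. The pairing is uncertain: replicate 3 in Cd against CK did not correlate best with its own number. Nor did replicates 1 and 3 in SeNP against CK. No sequence of these genes was used here.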

Additional observations from a re-analysis of the deposited data

How the results depend on the processing

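With a fold limit of 2 on the log2 scale the number of members called was 0 in each of the 6 comparisons. For SeNP against CK it was also 0 with library totals, and 0 to 1 with 1 library left out. It was 0 as well with the edgeR p adjusted for the number of genes tested (chosen after seeing the data). That adjustment ranks listed genes only, so its adjusted p is an upper limit. Leaving out 1 library gave 2 to 3 members for CdSeNP against CK and left the other counts as reported. The replicate block gave 3 members for Cd against CK and 1 for SeNP against CK, as reported, and changed 1 other call, the difference of the chromosome 5 CHLP gene between CdSeNP and Cd (-0.14, adjusted p 0.051, edgeR). Differences near 0 changed sign: with library totals GluTR2 in CdSeNP over CK was 0.02 and GluTR1 in CdSeNP over Cd -0.04, and with 1 library left out they ran from -0.32 to 0.16 and from -0.01 to 0.03. The interaction of the CHLP gene ran from -0.07 to 0.07, and 0 members had a called interaction in every setting. Library totals moved log2 values by 0.12 in Cd against CK and -0.10 in SeNP against Cd, relative to the authors' scaling. The cause of these shifts was not tested. GluTR2 and the minor CHLP gene rest on the fewest reads, from 260 in a library, and the spread of GluTR2 was widest in CK (coefficient of variation 32.6%, against 3.0% in Cd and 5.4% in CdSeNP).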

Other observations

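Each CHLP gene had a gene for chlorophyll a-b binding protein P4, a photosystem I antenna protein, as its nearest listed gene. On chromosome 5, LOC111909729 (46574506 to 46575780, minus strand) lies 809.6 kb from the main CHLP gene with 11 RefSeq genes between them. On chromosome 4, LOC111877753 (201351944 to 201353173, minus strand) lies 663.3 kb from the minor CHLP gene with 9 between them. The chromosome 5 antenna gene had 202 ± 2.57 FPKM in CdSeNP, 562 ± 40 in SeNP, 216 ± 24.8 in Cd and 580 ± 79.8 in CK (SD, n = 3). The chromosome 4 antenna gene had 348 ± 1.58 FPKM in CdSeNP, 819 ± 20.7 in SeNP, 388 ± 2.03 in Cd and 683 ± 19.1 in CK. Neither antenna gene was listed in SeNP against CK, where the minor CHLP gene was lower. The observation was made after the values were seen, and how often listed genes lie this near each other was not computed.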
